A study of Mus musculus with 6 samples.

Results

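The genes of oxidative phosphorylation were followed in mouse bone marrow cells carrying the RUNX1-RARA fusion. They were chosen by symbol: every row of the expression table named with the mt- prefix, the Nduf, Sdh, Uqcr, Atp5 and numbered Cox subunit families, and Cyc1. The pattern for Cox symbols took members of Cox5 to Cox8 and left out Cox4i1 and Cox4i2, which are given apart. This gave 96 of 21684 rows, 13 of them encoded by mitochondrial DNA and 83 by nuclear DNA, under 95 symbols because Atp5o had 2 gene IDs. Of these, 92 passed the filter on low values, that is at least 1 FPKM (a fragment count divided by gene length and by the library's mapped fragments) in 3 or more of the 6 libraries. The 4 that did not were Cox6a2, Cox7b2, Cox8b and Cox8c.

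Primary haematopoietic cells from mouse bone marrow were transduced with RUNX1-RARA (3 libraries) or with an empty vector (3 libraries), and RNA was sequenced. The fusion combines the haematopoietic transcription factor RUNX1 with RARA, a nuclear receptor for retinoic acid that is rearranged in acute promyelocytic leukaemia. The sources used here give neither strain, age, vector nor time in culture, and the labels do not say that libraries of a group came from separate mice or cultures. The p-values therefore reflect how far these libraries scatter, and that scatter may be technical.

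Oxidative phosphorylation takes place in the inner mitochondrial membrane. Complexes I and II feed electrons from NADH and succinate to ubiquinone, complex III passes them to cytochrome c, complex IV passes them to oxygen, and complex V, the ATP synthase, uses the proton gradient that complexes I, III and IV build. Mitochondrial DNA encodes the hydrophobic cores of complexes I, III, IV and V as long transcripts from both strands that are cut at the tRNAs between them, while complex II and all other subunits come from nuclear genes.

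Estimated depths were 26.4 to 40.2 M reads in RUNX1-RARA libraries and 32.9 to 89.7 M reads in empty vector libraries, the deepest being empty vector replicate 1, where low values are the most precise, and the ratios of these depths are firmer than their absolute size. The labelled blood cell type was checked with 6 pan-leukocyte markers, which summed to 673 to 702 FPKM in RUNX1-RARA and 1031 to 1084 FPKM in empty vector libraries. Ptprc, the common leukocyte antigen CD45, stood at 70.6 to 81.5 FPKM in RUNX1-RARA and 151 to 159 FPKM in empty vector libraries. The 19 secondary granule and mature neutrophil markers summed to 2707 to 3266 FPKM in RUNX1-RARA and 67305 to 73963 FPKM in empty vector libraries, and all 14 that reached 1 FPKM in both groups fell. The other 5 passed the filter on low values only through the empty vector libraries, so their difference was fixed by the filter. Of 12 monocyte and macrophage markers, 6 reached 1 FPKM in both groups and 5 of these fell, while 5 more passed only through the empty vector libraries. The sums of the 12 were 546 to 594 FPKM in RUNX1-RARA and 1453 to 1930.4 FPKM in empty vector libraries. The 10 progenitor markers summed to 1120 to 1234 FPKM in RUNX1-RARA and 1560 to 1675 FPKM in empty vector libraries, but went both ways, with 5 higher and 4 lower among 9 tested, 2 of the 4 having passed only through the empty vector libraries. Beside these counts, 46.0% of all tested genes were called higher and 31.7% lower, by the test given below. The 10 erythroid markers summed to 106 to 121 FPKM in RUNX1-RARA and 71.6 to 78.2 FPKM in empty vector libraries. The 2 that passed the filter on low values carried this sum. The other 8 summed to 2.49 to 2.73 FPKM in RUNX1-RARA and 1.65 to 2.34 FPKM in empty vector libraries. Pecam1 and Pdgfrb carried the sum of the 10 stromal and endothelial markers (110 to 112 FPKM in RUNX1-RARA and 35.2 to 36.3 FPKM in empty vector libraries), and the other 8 summed to 0.072 to 0.078 FPKM in RUNX1-RARA and 0.789 to 0.916 FPKM in empty vector libraries. Nkg7 carried that of the 10 T, NK and B cell markers (58.8 to 77.9 FPKM in RUNX1-RARA and 26.3 to 29.1 FPKM in empty vector libraries), and the other 9 summed to 0 to 0.207 FPKM in RUNX1-RARA and 0.921 to 1.057 FPKM in empty vector libraries. These markers moved with the groups in every comparison given here, and their part in the results was not tested. In bulk RNA, fewer cells of a type and less RNA per cell cannot be told apart. Mouse Runx1 averaged 21.9 ± 0.248 FPKM in RUNX1-RARA and 17.7 ± 0.993 FPKM in empty vector libraries (SD, n = 3 each). Mouse Rara averaged 15.4 ± 1.57 FPKM in RUNX1-RARA and 12.6 ± 1.33 FPKM in empty vector libraries. These values cannot be read as the level of the fusion transcript, and whether its reads counted toward either gene was not tested.

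Sequences of the mitochondrial genes are shown first, because neighbouring genes share bases and several have near-identical copies in the nuclear genome, which bears on how far each level can be read. Transcript sequences are from GENCODE M21 on GRCm38. On chrM, the end of mt-Atp8 and the start of mt-Atp6 share 43 bases in different reading frames, here in capitals within chrM:7903-7993 on the plus strand, and the end of mt-Nd4l shares 7 bases with the start of mt-Nd4, in capitals within chrM:10143-10197 on the plus strand.
mt-Atp8 and mt-Atp6: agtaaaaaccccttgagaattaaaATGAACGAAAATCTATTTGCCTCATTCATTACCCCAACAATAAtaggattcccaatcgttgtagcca
mt-Nd4l and mt-Nd4: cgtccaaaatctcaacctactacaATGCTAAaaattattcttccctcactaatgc

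The first 90 bases of mt-Nd3 (chrM:9459-9548, plus strand) are set beside those of its nuclear copy, the unprocessed pseudogene Gm28438 (chr1:24613030-24613119, minus strand), since mt-Nd3 had the largest fold change of all members. Capitals mark the only base of the 90 that differs. Over the whole copy, 344 of 345 bases were identical.
mt-Nd3: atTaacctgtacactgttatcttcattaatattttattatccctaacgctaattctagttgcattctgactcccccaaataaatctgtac
Gm28438: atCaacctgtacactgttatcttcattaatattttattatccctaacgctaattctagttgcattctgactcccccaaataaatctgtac

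All 13 mitochondrially encoded genes rose in RUNX1-RARA libraries, and for all 13 the groups did not overlap. Their median log2 fold change was 1.324, against 0.11 for all 10901 tested genes, and ran from 0.97 for mt-Nd6 to 2.32 for mt-Nd3. Fold changes on the log2 scale are RUNX1-RARA minus empty vector on log2(FPKM + 1), and a gene was called higher or lower at a Benjamini-Hochberg adjusted p under 0.05 in limma, a linear model fitted across all tested genes. The background was wide: 46.0% of all tested genes were called higher and 31.7% lower, and the groups did not overlap for 46.8% on the higher side and 32.4% on the lower side.

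Together the 13 genes made up 23.9%, 26.3% and 21.9% of the FPKM sum in RUNX1-RARA replicates 1, 2 and 3, against 10.6%, 7.96% and 10.3% in empty vector replicates 1, 2 and 3. The means were 24.04% ± 2.19 in RUNX1-RARA and 9.60% ± 1.42 in empty vector libraries (SD, n = 3 each). The groups did not overlap, and with 3 libraries against 3 an exact permutation test cannot go below p = 0.1 (two-sided), so none was run on sums. Because long genes count more in reads than in FPKM, the share was also taken as FPKM times gene length, which gave 12.1% ± 1.34 of mapped fragments in RUNX1-RARA and 4.85% ± 0.722 in empty vector libraries. The labels do not say whether poly(A) RNA was selected for these libraries, a step on which levels of mitochondrially encoded genes depend. The 83 nuclear rows held 1.12% ± 0.0411 of the FPKM sum in RUNX1-RARA and 1.05% ± 0.0439 in empty vector libraries, and here the groups overlapped. The FPKM sum of mitochondrially encoded over nuclear members was 21.5 ± 2.68 in RUNX1-RARA and 9.19 ± 1.70 in empty vector libraries.

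**Figure D1:**
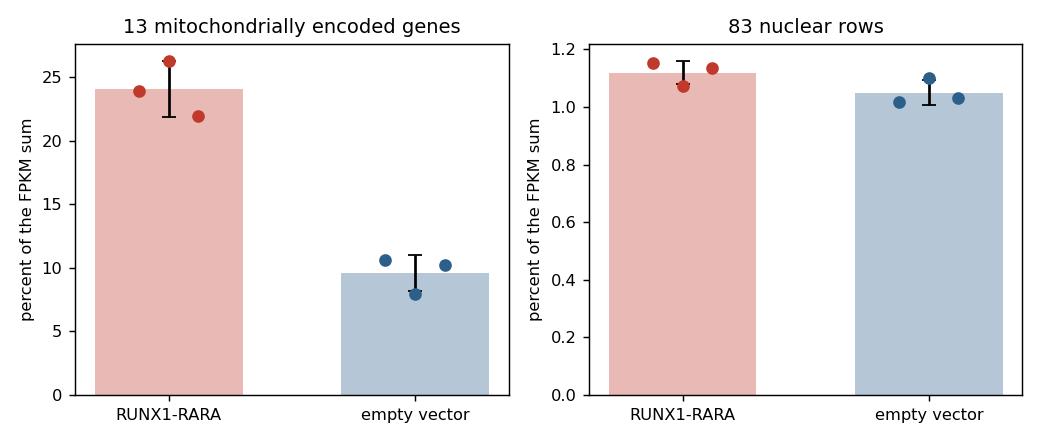
Percent of the FPKM sum held by the 13 mitochondrially encoded genes (left) and the 83 nuclear rows (right) in RUNX1-RARA and empty vector libraries; points are libraries, bars are means and whiskers are SD (n = 3 each). On the left the RUNX1-RARA libraries lie between 21.9% and 26.3% and the empty vector libraries between 7.96% and 10.6%, while on the right the groups overlap.

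Complex I has 7 mitochondrially encoded subunits, which form the proton-pumping membrane arm. mt-Nd1, which lies next to the ubiquinone site (ENSMUSG00000064341), stood at 16696, 18712 and 14535 FPKM in RUNX1-RARA libraries, against 7060.2, 4714 and 6066 FPKM in empty vector libraries. The RUNX1-RARA value was higher in every library, with a log2 fold change of 1.497 (limma adjusted p = 2.26e-05). mt-Nd2, mt-Nd4 and mt-Nd5, the antiporter-like pump subunits, had log2 fold changes of 1.47, 1.34 and 1.324 and lay at 5147 to 10917 FPKM in RUNX1-RARA and at 1896 to 4306 FPKM in empty vector libraries.

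mt-Nd3 (ENSMUSG00000064360, chrM:9459-9806), a small subunit at the hinge between the membrane and matrix arms, stood at 369.9, 402 and 349 FPKM in RUNX1-RARA libraries, against 77.4, 78.3 and 66.0 FPKM in empty vector libraries. That is 5.05-fold, or 2.32 on the log2 scale (SE 0.0808, adjusted p = 1.60e-09 in limma). The spread within each group was small beside the gap. mt-Nd4l, whose last bases overlap mt-Nd4, rose 2.91-fold and had 457, 349 and 300.1 FPKM in RUNX1-RARA libraries, against 141, 91.1 and 148 FPKM in empty vector libraries.

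mt-Nd6 is the only protein gene on the other strand of mitochondrial DNA (chrM:13552-14070 on the minus strand). It stood at 6073, 7473 and 5878 FPKM in RUNX1-RARA libraries, against 3431, 2206 and 4647 FPKM in empty vector libraries, or 0.97 higher on the log2 scale (SE 0.233, adjusted p = 0.00311 in limma). This was the smallest rise of the 13, and the empty vector libraries varied widely. The sources used here do not state how strand was handled, so reads from transcripts of the opposite strand, and over the 14 bases shared with mt-Nd5, cannot be told apart from mt-Nd6 itself. Without empty vector replicate 2 the log2 fold change was 0.69.

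Complex III has 1 mitochondrially encoded subunit, mt-Cytb, which holds the quinone sites and the b haems. mt-Cytb stood at 17431, 19361 and 15791 FPKM in RUNX1-RARA libraries, against 8010.35, 6001 and 7912 FPKM in empty vector libraries, a log2 fold change of 1.27 (limma adjusted p = 4.29e-05). Complex IV has 3, of which mt-Co1 carries the oxygen-reducing haem site and was the most abundant member in every library. mt-Co1 stood at 30205, 34599 and 26837 FPKM in RUNX1-RARA libraries, against 14308, 10939 and 12347 FPKM in empty vector libraries, and rose 2.44-fold. The call of mt-Co1 was lost only without the filter on low values (log2 fold change 1.29, adjusted p = 0.0649), and over all settings its adjusted p lay between 1.58e-06 and 0.0649. mt-Co2, which receives electrons from cytochrome c, rose 2.32-fold and mt-Co3, the remaining core subunit, 2.94-fold.

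Complex V has 2 mitochondrially encoded subunits, mt-Atp6, the proton channel, and mt-Atp8, a short membrane subunit. mt-Atp8 stood at 3817, 1769 and 1959 FPKM in RUNX1-RARA libraries, against 1068, 847 and 1128 FPKM in empty vector libraries. mt-Atp6 stood at 1985, 1256 and 1398 FPKM in RUNX1-RARA libraries, against 635, 579 and 760.3 FPKM in empty vector libraries. Both genes, which overlap, were highest in RUNX1-RARA replicate 1, and both remained called without it, with log2 fold changes of 0.89 for mt-Atp8 and 1.02 for mt-Atp6.

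**Figure D2:**
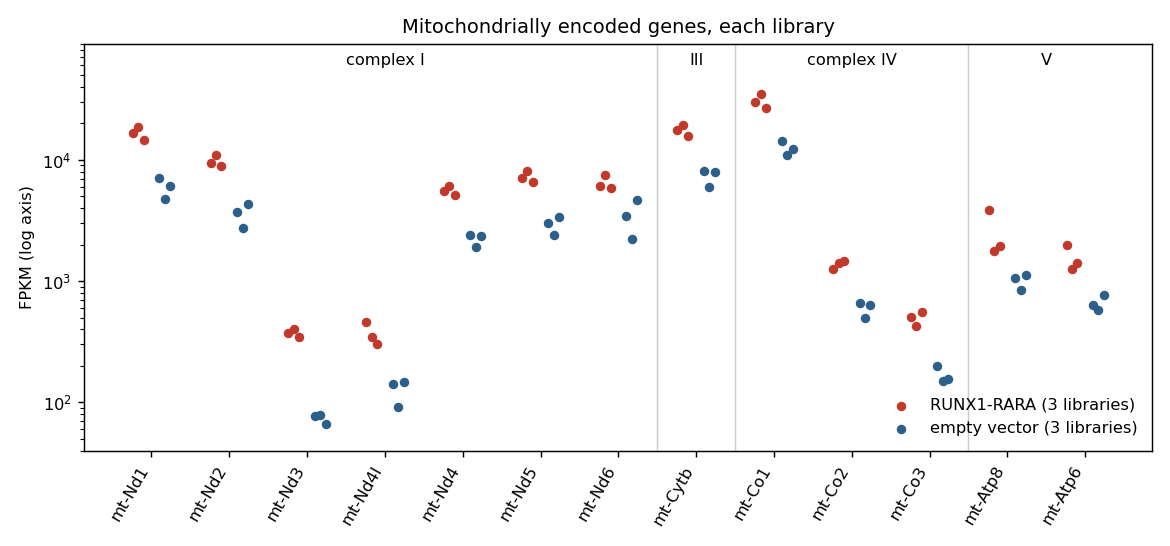
FPKM on a log axis of the 13 mitochondrially encoded genes in each library, RUNX1-RARA left of empty vector within each gene, grouped by complex. For every gene all 3 RUNX1-RARA points lie above all 3 empty vector points, with the widest gap at mt-Nd3 and the narrowest at mt-Nd6.

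Within the mitochondrial sum, the most abundant genes held shares of similar size in both groups. mt-Co1 held 30.4% ± 0.742 of the summed FPKM in RUNX1-RARA and 31.1% ± 2.59 in empty vector libraries (SD, n = 3 each), and mt-Cytb held 17.5% ± 0.172 in RUNX1-RARA and 18.03% ± 0.0982 in empty vector libraries. mt-Nd1 held 16.5% ± 0.335 in RUNX1-RARA and 14.6% ± 1.05 in empty vector libraries. The groups overlapped for mt-Co1 and not for mt-Cytb, which was lower in RUNX1-RARA, or mt-Nd1, which was higher. mt-Nd3 held 0.366%, 0.363% and 0.389% in RUNX1-RARA libraries, against 0.173%, 0.236% and 0.150% in empty vector libraries. Those groups did not overlap. mt-Nd6 held 6.44% ± 0.377 in RUNX1-RARA and 8.31% ± 2.04 in empty vector libraries, with overlap between the groups.

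Levels of individual mitochondrial genes are uncertain where a nuclear copy could have taken reads. Of the 50-base windows along mt-Co2, mt-Atp6, mt-Co3, mt-Nd3 and mt-Nd4l, 98.0% to 100% occurred in another GENCODE transcript, chiefly unprocessed pseudogenes on chromosome 1. These 5 genes averaged 369 to 1546 FPKM in RUNX1-RARA and 73.9 to 658 FPKM in empty vector libraries and rose 2.32-fold to 5.05-fold. mt-Atp8, mt-Cytb, mt-Nd1, mt-Nd2, mt-Nd5 and mt-Nd6 shared 0% to 8.19% of their windows, averaged 2515 to 17528 FPKM in RUNX1-RARA and 1014 to 7308 FPKM in empty vector libraries, and rose 1.89-fold to 2.80-fold. Only annotated transcripts were searched, so copies in unannotated sequence were not counted. mt-Atp8 starts between mt-Co2 and mt-Atp6, which lie 230 bases apart, and the chromosome 1 copies of those genes lie 233 bases apart. A copy of mt-Atp8 between them was not looked for, so its 0% is uncertain. mt-Co1 and mt-Nd4, with 51.1% and 62.2% of windows shared, rose 2.44-fold and 2.52-fold. Both genes with few shared windows and genes with many rose, the largest ratio, 5.05 for mt-Nd3, being among those with many. The copies found had no rows in the deposited expression values, so their levels could not be examined. The sources used here do not state how reads that map to several places were counted, and the part of the copies in the levels was not tested.

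**Figure D3:**
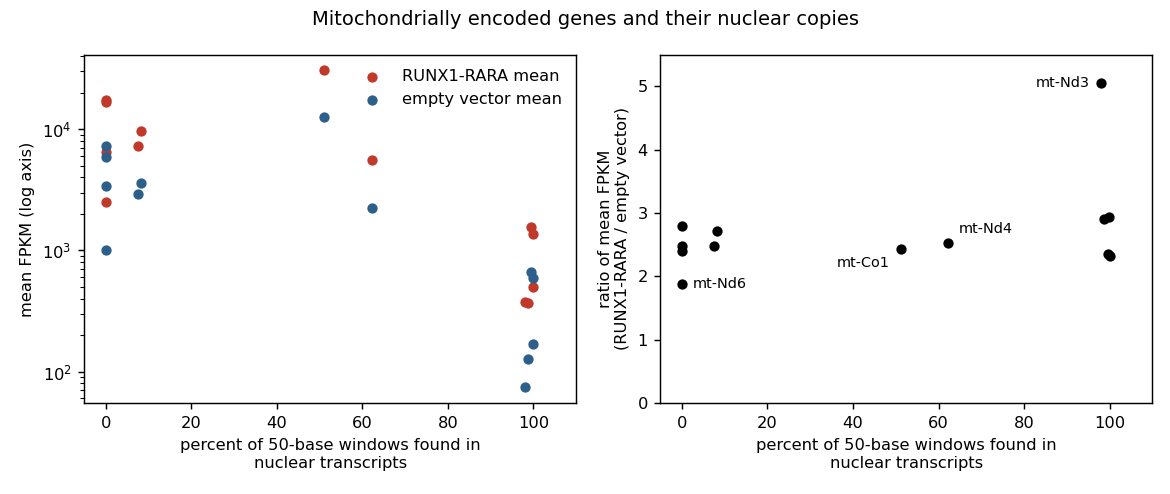
Mean FPKM on a log axis (left) and the ratio of mean FPKM, RUNX1-RARA over empty vector (right), of the 13 mitochondrially encoded genes against the percent of their 50-base windows found in nuclear transcripts. The 5 genes at 98.0% to 100% had lower levels in both groups than the other 8, and all 13 ratios lie above 1, from 1.89 for mt-Nd6 to 5.05 for mt-Nd3.

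As deposited, the median of the nuclear subunits lay near that of all tested genes, and members moved in both directions. Of 79 tested rows, 32 rose (40.5%), 11 fell (13.9%) and 36 were not called, beside 46.0% and 31.7% of all tested genes, and their median log2 fold change was 0.12 beside 0.11 for all tested genes. The groups did not overlap for 30 higher and 11 lower rows of the 79, beside 46.8% and 32.4% of all tested genes. FPKM divide by all mapped fragments, so a larger mitochondrial share lowers the FPKM of every other gene in that library. The same holds for any set of abundant genes. In empty vector libraries the 19 secondary granule and mature neutrophil markers were such a set, with sums of 67305 to 73963 FPKM. With the fusion their sums were only 2707 to 3266 FPKM. The rescaling given next kept these markers in, and their effect on it was not tested. Rescaled to equal sums without the mitochondrially encoded genes, 54 nuclear rows were higher and 5 lower, beside 63.5% and 21.5% of all tested genes. The median of the nuclear rows was then 0.38, beside 0.35 for all tested genes. Under TMM scaling, which centres the bulk of genes near 0, 23 were higher and 17 lower (median -0.0037, all tested genes 0.0010), beside 37.5% and 38.3% of all tested genes. Under quantile normalization, 41 were higher and 9 lower (median 0.21, all tested genes 0.12), beside 46.7% and 31.0% of all tested genes. Of all called genes, 59.2% were higher and 40.8% lower as deposited, 74.7% and 25.3% after rescaling without the mitochondrially encoded genes, and 49.5% and 50.5% under TMM scaling. Under all 5 other scalings run, 23 of the 32 higher calls and 5 of the 11 lower calls were kept, whereas all 13 mitochondrially encoded genes kept theirs, with medians of 1.20 to 1.59.

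**Figure D4:**
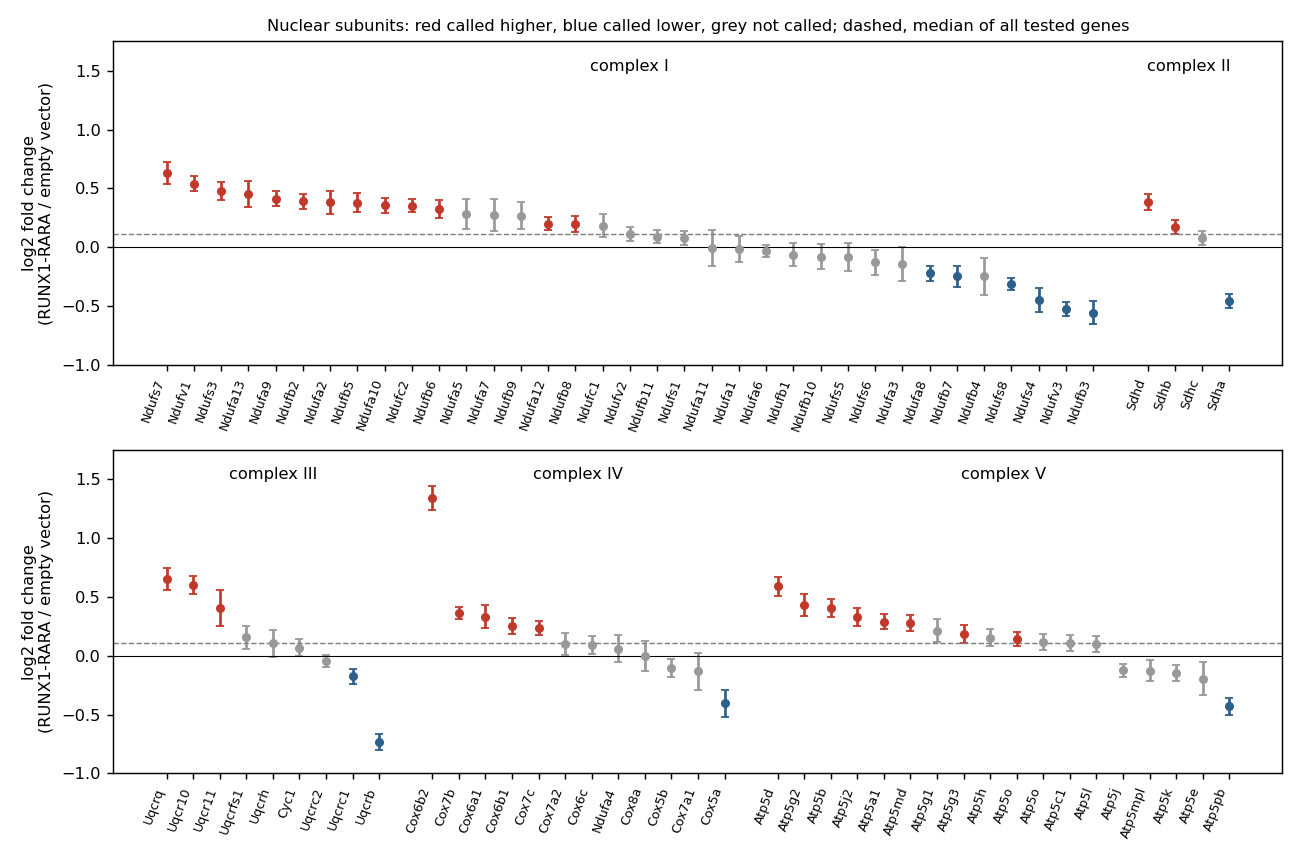
Log2 fold change (RUNX1-RARA over empty vector, on log2(FPKM + 1)) of 78 of the 79 tested nuclear rows by complex, with the SE of the limma fit; red points were called higher, blue lower and grey not called, and the dashed line is the median of all tested genes, 0.11. Values run from -0.73 for Uqcrb to 1.34 for Cox6b2, and each complex holds both red and blue points.

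In complex I, 14 of 36 nuclear subunits rose (38.9%) and 6 fell (16.7%), beside 46.0% and 31.7% of all tested genes. The core subunits carry the flavin and the iron-sulphur clusters. Ndufs7, which holds the last iron-sulphur cluster before ubiquinone (chr10:80249121-80256794), stood at 16.2, 15.8 and 13.5 FPKM in RUNX1-RARA libraries, against 8.21, 9.58 and 10.7 FPKM in empty vector libraries. The groups were well apart, and its rise of 0.63 on the log2 scale (SE 0.0933, adjusted p = 1.21e-04 in limma) was the largest rise among the nuclear complex I genes. Ndufv1, the NADH-binding flavoprotein, stood at 32.1, 28.2 and 31.4 FPKM in RUNX1-RARA libraries, against 19.8, 21.7 and 20.8 FPKM in empty vector libraries, a log2 fold change of 0.54 (adjusted p = 2.16e-05). Ndufs3, a core subunit of the matrix arm, averaged 18.8 ± 1.97 FPKM in RUNX1-RARA and 13.2 ± 0.674 FPKM in empty vector libraries, and rose by 0.48. The core subunit Ndufs8 fell by 0.31 and lost its call when scaled without the mitochondrially encoded genes (-0.06, adjusted p = 0.307; range over all settings 1.93e-05 to 0.307).

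The 29 supernumerary subunits, which surround the core and steady it, included 10 that rose and 5 that fell, with a median of 0.09 that turned to -0.03 under TMM scaling. The median of all tested genes moved likewise under that scaling, from 0.11 to 0.0010. Ndufb3, of the membrane arm, stood at 67.2, 70.7 and 59.0 FPKM in RUNX1-RARA libraries, against 111, 87.9 and 92.6 FPKM in empty vector libraries, and fell by 0.56 on the log2 scale (adjusted p = 3.10e-04). Ndufv3 stood at 17.1, 16.3 and 15.6 FPKM in RUNX1-RARA libraries, against 23.2, 23.6 and 25.2 FPKM in empty vector libraries, and fell by 0.53 (adjusted p = 1.08e-05). Neither gene overlapped between groups. Ndufs4, a late-assembled subunit of the matrix arm, fell by 0.45 to 13.04 ± 1.67 FPKM in RUNX1-RARA, against 18.1 ± 2.21 FPKM in empty vector libraries, and lost its call when scaled without the mitochondrially encoded genes (-0.20, adjusted p = 0.0735; range over all settings 3.81e-04 to 0.0735). The rises were Ndufa2, Ndufa9, Ndufa10, Ndufa12, Ndufa13, Ndufb2, Ndufb5, Ndufb6, Ndufb8 and Ndufc2, at 0.20 to 0.45, and the other falls Ndufa8 and Ndufb7, at -0.22 and -0.25. Ndufa13 shares 29.98% of its exon bases with Tssk6 and Ndufb6 39% with Smim27 on the opposite strand. Ndufb8 lost its call under TMM scaling and without RUNX1-RARA replicate 3 or empty vector replicate 1 (adjusted p over all settings 5.43e-05 to 0.278), and Ndufb7 without RUNX1-RARA replicate 2 or 3 or empty vector replicate 3 (0.00264 to 0.883). Ndufa8 and Ndufb7 were also not called when scaled without the mitochondrially encoded genes, and Ndufa12 was not called under TMM scaling (0.08, adjusted p = 0.174; range over all settings 1.09e-05 to 0.202). The 14 supernumerary subunits Ndufa1, Ndufa3, Ndufa5, Ndufa6, Ndufa7, Ndufa11, Ndufb1, Ndufb4, Ndufb9, Ndufb10, Ndufb11, Ndufc1, Ndufs5 and Ndufs6 were not called, nor were the core subunits Ndufs1 and Ndufv2, with log2 fold changes from -0.25 to 0.28.

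The 4 subunits of complex II, the succinate dehydrogenase that also belongs to the citric acid cycle, moved in different directions. Sdha, the flavoprotein that oxidises succinate, stood at 41.0, 38.1 and 41.6 FPKM in RUNX1-RARA libraries, against 52.9, 58.6 and 55.3 FPKM in empty vector libraries, and fell by 0.46 on the log2 scale (SE 0.0596, limma adjusted p = 4.71e-05). Sdhd, a membrane anchor, stood at 66.0, 73.0 and 76.8 FPKM in RUNX1-RARA libraries, against 51.6, 55.0 and 58.0 FPKM in empty vector libraries, and rose by 0.38 (adjusted p = 5.06e-04). Neither overlapped between groups, so the catalytic subunit and an anchor of the same complex lay on opposite sides. Sdhb, the iron-sulphur subunit, rose by 0.17 (adjusted p = 0.0211, range over all settings 4.85e-05 to 0.406) and lost the call under TMM scaling (0.06, adjusted p = 0.366), under median-of-ratios scaling (0.05, 0.406) and without RUNX1-RARA replicate 1 (0.16, 0.0746), empty vector replicate 1 (0.16, 0.0554) or empty vector replicate 3 (0.13, 0.0911). Sdhc, the other anchor, was not called (log2 fold change 0.08).

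In complex III, 3 of 9 nuclear members rose (33.3%) and 2 fell (22.2%), both below the shares of all tested genes, and the largest changes again ran both ways. Uqcrb, a small subunit next to cytochrome b that overlaps Gm10767 on the opposite strand, stood at 165, 149.8 and 138 FPKM in RUNX1-RARA libraries, against 253, 245 and 255 FPKM in empty vector libraries. It had the largest fall of all members, -0.73 (SE 0.0711, limma adjusted p = 4.97e-06). Uqcrq, another small subunit, stood at 17.9, 20.2 and 15.0 FPKM in RUNX1-RARA libraries, against 11.1, 10.3 and 11.0 FPKM in empty vector libraries, and rose by 0.65 (adjusted p = 8.76e-05). Uqcr10, a small subunit, rose by 0.60 to 63.8 ± 6.81 FPKM in RUNX1-RARA, against 41.7 ± 2.47 FPKM in empty vector libraries. The electron-carrying subunits Cyc1, which is cytochrome c1, and Uqcrfs1, the Rieske protein, were not called, with log2 fold changes of 0.07 and 0.16, nor were Uqcrh (0.11) and Uqcrc2 (-0.04). Uqcr11 (0.41) and Uqcrc1 (-0.18) were called, but Uqcr11 lost its call under TMM scaling and without RUNX1-RARA replicate 1 or 2 or empty vector replicate 2 or 3, and Uqcrc1 without RUNX1-RARA replicate 1 or 3 or empty vector replicate 1. The adjusted p over all settings ran from 8.71e-04 to 0.129 for Uqcr11 and from 0.00256 to 0.268 for Uqcrc1.

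Complex IV had 16 nuclear rows, 12 of them tested, of which 5 rose (41.7%) and 1 fell (8.33%), beside 46.0% and 31.7% of all tested genes. Several of its subunits exist as tissue isoforms. Cox6b2, known as a testis isoform of the subunit that Cox6b1 provides in most tissues, stood at 4.79, 4.25 and 3.57 FPKM in RUNX1-RARA libraries, against 1.08, 1.27 and 0.801 FPKM in empty vector libraries. The groups stood clear of each other, 1.34 apart on the log2 scale (SE 0.104, adjusted p = 8.74e-07 in limma), which moved between 0.60 and 1.91 with the pseudocount because the level is low. Cox6b1 itself averaged 176 ± 9.45 FPKM in RUNX1-RARA and 148 ± 9.83 FPKM in empty vector libraries, so Cox6b2 stayed far below it per length. Cox6b1 rose by 0.25 and lost its call under TMM scaling (0.13, adjusted p = 0.0744) and median-of-ratios scaling (0.13, 0.0807).

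Cox7b, a small subunit, stood at 100.2, 96.4 and 95.6 FPKM in RUNX1-RARA libraries, against 76.4, 76.3 and 73.8 FPKM in empty vector libraries, and rose by 0.36 (adjusted p = 8.05e-05). Cox5a, a matrix-side subunit that overlaps Gm26631 on the opposite strand, stood at 94.4, 83.2 and 113 FPKM in RUNX1-RARA libraries, against 114, 146 and 125 FPKM in empty vector libraries. Its highest RUNX1-RARA value lay just under its lowest empty vector value. Cox5a fell by 0.41 (adjusted p = 0.00839, range over all settings 0.00112 to 0.238) and lost the call when scaled without the mitochondrially encoded genes (-0.14, 0.238). Cox6a1, the widely expressed isoform, and Cox7c also rose, by 0.33 and 0.24, and both lost the call under TMM scaling. The striated muscle isoforms Cox6a2 and Cox8b stood at 0.496 to 0.759 and 0.1 to 0.273 FPKM in RUNX1-RARA libraries, and Cox6a2 at up to 0.819 FPKM in empty vector libraries, where Cox8b was listed at 0. Cox7b2 and Cox8c were listed at 0 in all libraries. Not called were Cox5b, Cox6c, Cox7a1, Cox7a2, Cox8a and Ndufa4, the last of these a complex IV subunit despite its name, with log2 fold changes from -0.13 to 0.10.

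In complex V, 8 of 18 nuclear rows rose (44.4%), a share near the 46.0% of all tested genes, and 1 fell (5.56%). Of the 5 F1 subunits, which form the catalytic head, 3 rose, as they did under TMM scaling. Atp5b, the catalytic beta subunit and the most abundant nuclear member, stood at 441, 421 and 441 FPKM in RUNX1-RARA libraries, against 298, 339.97 and 347 FPKM in empty vector libraries, or 0.41 higher on the log2 scale (SE 0.0739, adjusted p = 5.35e-04 in limma). Atp5d, the delta subunit of the central stalk, stood at 31.1, 31.2 and 25.6 FPKM in RUNX1-RARA libraries, against 20.1, 18.5 and 18.7 FPKM in empty vector libraries, and rose by 0.59 (adjusted p = 5.38e-05). Both sets of libraries stood clear of each other, and Atp5a1, the alpha subunit, rose by 0.29.

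The c-ring, which turns as protons pass, is encoded by 3 genes. Atp5g2 stood at 41.5, 38.1 and 30.7 FPKM in RUNX1-RARA libraries, against 26.6, 26.0 and 28.1 FPKM in empty vector libraries, and rose by 0.43 (adjusted p = 0.00191). Atp5g3 rose by 0.19 (adjusted p = 0.0435, range over all settings 1.13e-04 to 0.438), a call lost under TMM scaling and without RUNX1-RARA replicate 1 or 3 or empty vector replicate 1 or 2, and Atp5g1 was not called (0.21). Atp5pb, of the peripheral stalk that holds the head still, stood at 135, 128 and 142 FPKM in RUNX1-RARA libraries, against 168, 199 and 179.7 FPKM in empty vector libraries, and fell by 0.43 (adjusted p = 3.29e-04). It overlaps Wdr77 on the opposite strand. Of the membrane subunits, Atp5j2 rose by 0.33 and Atp5md by 0.28. The Atp5o ID ENSMUSG00000022956 rose by 0.14 (adjusted p = 0.0425, range over all settings 7.95e-05 to 0.762) and lost its call under TMM scaling and without any single library other than empty vector replicate 2, while ENSMUSG00000116933, which overlaps it and Donson on the same strand, was not called. The other rows not called were Atp5c1, Atp5e, Atp5h, Atp5j, Atp5k, Atp5l and Atp5mpl, with log2 fold changes from -0.20 to 0.15.

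Some respiratory chain proteins lie outside the symbol rule. Cox7a2l, which joins complexes III and IV into supercomplexes, stood at 114, 106 and 127 FPKM in RUNX1-RARA libraries, against 73.1, 88.6 and 78.8 FPKM in empty vector libraries, and rose by 0.52. Atpif1, the protein inhibitor of ATP synthase, stood at 243, 209.6 and 203 FPKM in RUNX1-RARA libraries, against 149, 148 and 162 FPKM in empty vector libraries, and rose by 0.51. Cycs, cytochrome c itself, stood at 28.4, 31.9 and 28.2 FPKM in RUNX1-RARA libraries, against 38.3, 38.3 and 36.3 FPKM in empty vector libraries, and fell by 0.34, a call lost when scaled without the mitochondrially encoded genes (-0.09, adjusted p = 0.254; range over all settings 6.96e-05 to 0.254). None of these overlapped between groups. Cox4i1, the common isoform of the regulatory subunit IV, was not called (0.13). Cox4i2 averaged 1.04 ± 0.373 FPKM in RUNX1-RARA and 0.385 ± 0.181 FPKM in empty vector libraries, and Ndufa4l2 0.0607 FPKM in RUNX1-RARA libraries, and both were too low to test.

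Promoters of the members were examined for short motifs of regulators known for respiration genes. RefSeq promoters (GRCm38.p6, 250 bases before to 50 after the start) were matched by symbol for 68 of 82 nuclear symbols. The promoters of Atp5g2 (chr15:102670998-102671297, minus strand) and Sdha (chr13:74350191-74350490, minus strand) are shown because they were the largest called rise and fall among members holding the motif of NRF1, a factor of respiration genes, which is in capitals wherever it occurs on either strand.
Atp5g2 promoter: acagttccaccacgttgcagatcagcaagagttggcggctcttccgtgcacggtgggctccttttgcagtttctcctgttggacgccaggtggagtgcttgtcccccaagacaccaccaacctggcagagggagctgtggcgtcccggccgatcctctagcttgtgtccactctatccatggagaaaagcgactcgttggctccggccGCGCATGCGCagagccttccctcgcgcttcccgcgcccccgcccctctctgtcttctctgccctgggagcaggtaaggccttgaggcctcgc
Sdha promoter: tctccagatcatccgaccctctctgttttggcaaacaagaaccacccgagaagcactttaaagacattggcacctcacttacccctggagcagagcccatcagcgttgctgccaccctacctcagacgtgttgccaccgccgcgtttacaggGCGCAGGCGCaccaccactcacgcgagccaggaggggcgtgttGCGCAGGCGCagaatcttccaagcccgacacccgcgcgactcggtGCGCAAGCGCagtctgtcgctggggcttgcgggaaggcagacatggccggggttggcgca

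The NRF1 motif was found for 17 of 68 member genes (25%), beside 12.3% of tested genes with a promoter. A gene was counted if any of its promoters held the motif. Counted by single promoter, a different measure, the motif stood in 4.603% of all 32851 promoters. The GABP motif CCGGAAG was also found in 17 (25%), beside 21.9% of tested genes, and the YY1 motif AAGATGGCG in 7 (10.3%), beside 3.99%. The RUNX motif TGTGGT was found in 7 (10.3%), beside 15.3% of tested genes, and the nuclear receptor half-site AGGTCA in 17 (25%), beside 14.7%. All were searched on both strands, and none of the 5 strings, or its reverse complement, contains another. Members that fell also held these motifs, except that of RUNX: NRF1 stood in 5 of 28 higher and 3 of 10 lower members, GABP in 8 and 2, YY1 in 3 and 1, RUNX in 3 and 0, and AGGTCA in 5 and 1. A match describes letters in the window and not binding.

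Genes that transcribe and process mitochondrial RNA were mostly higher in RUNX1-RARA libraries. Of 18 tested genes of mitochondrial DNA transcription and maintenance, 15 rose (83.3%, beside 46.0% of all tested genes) and none fell, and the median was 0.50 on the log2 scale (0.41 under TMM scaling, with 13 higher and 1 lower). Polrmt, the mitochondrial RNA polymerase, stood at 4.54, 4.83 and 3.65 FPKM in RUNX1-RARA libraries, against 1.82, 1.62 and 2.17 FPKM in empty vector libraries, and rose by 0.89 (SE 0.0975, limma adjusted p = 1.21e-05). Mterf2 and Mterf1b, of the mitochondrial transcription termination factor family, rose by 0.89 and 0.84, and Mterf1b has a close paralog, Mterf1a, so its level is uncertain. Of 18 genes of mitochondrial RNA processing and stability, 17 rose and none fell, with a median of 0.47 (0.36 under TMM scaling, with 14 higher). Fastkd1, of a family that binds mitochondrial RNA, stood at 16.0, 14.9 and 16.4 FPKM in RUNX1-RARA libraries, against 6.33, 6.67 and 6.16 FPKM in empty vector libraries, and rose by 1.18 (adjusted p = 2.57e-08). Rexo2, an oligoribonuclease, rose by 1.02 and Supv3l1, the helicase of the mitochondrial degradosome, by 0.74.

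Assembly factors build the complexes and are not part of them. For complex I, 15 of 18 rose (83.3%, beside 46.0% of all tested genes) and none fell, with a median of 0.33 (0.23 under TMM scaling, 12 higher and 1 lower). Dmac2, an assembly factor of the distal membrane arm, stood at 14.7, 15.6 and 13.2 FPKM in RUNX1-RARA libraries, against 6.03, 5.78 and 5.44 FPKM in empty vector libraries, and rose by 1.20 (adjusted p = 8.96e-08), while Ndufaf1 and Ndufaf6 rose by 0.70 and 0.63. For complexes II and III, 6 of 8 rose and 1 fell (median 0.40, and 0.30 under TMM scaling), led by Uqcc2, Uqcc1 and Uqcc3, which help make cytochrome b, at 0.79, 0.67 and 0.57. For complex IV, 8 of 22 rose (36.4%) and 4 fell (18.2%), with a median of 0.09 that turned to -0.01 under TMM scaling, where 5 were higher and 6 lower. The median of all tested genes moved likewise, from 0.11 to 0.0010, with 37.5% higher and 38.3% lower under TMM scaling. Cox18 rose by 0.65 and Sco2, a copper chaperone, by 0.59, and Coa4 fell by 0.50. For complex V, 3 of 4 rose, with Fmc1 at 1.02 and Atpaf2 at 0.38. Atpaf1 rose by 0.17 (adjusted p = 0.0317, range over all settings 2.95e-04 to 0.335) and lost its call under TMM scaling and without RUNX1-RARA replicate 2 or 3 or empty vector replicate 1 or 2.

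Among 9 tested nuclear regulators of respiration genes, 5 were called higher (55.6%) and 3 lower (33.3%), beside 46.0% and 31.7% of all tested genes. Myc, a transcription factor of growth that also acts on mitochondrial genes, stood at 144, 138 and 133 FPKM in RUNX1-RARA libraries, against 72.3, 66.8 and 65.8 FPKM in empty vector libraries, and rose by 1.01 (adjusted p = 1.01e-07). The coactivator Pprc1 rose by 0.82. Ppargc1b, another coactivator, stood at 1.49, 1.34 and 1.34 FPKM in RUNX1-RARA libraries, against 0.581, 0.571 and 0.77 FPKM in empty vector libraries, and was tested only because its RUNX1-RARA values reached 1 FPKM, which fixed the direction of its call. Of the 8 regulators that reached 1 FPKM in both groups, 4 were higher and 3 lower. Nrf1 and Gabpa, the factors whose motifs were counted in the promoters, fell by 0.22 and 0.31, and Gabpa overlaps Atp5j on the opposite strand. Both lost the call when scaled without the mitochondrially encoded genes (log2 fold changes 0.0033 and -0.06), and Nrf1 also without empty vector replicate 3, with adjusted p up to 0.967 for Nrf1 and 0.507 for Gabpa over all settings. Of 13 enzymes of the citric acid cycle, 9 rose (69.2%) and none fell (median 0.28, and 0.16 under TMM scaling with 7 higher and 2 lower), among them Idh3g, Suclg1 and Suclg2 at 0.70, 0.63 and 0.46. Of 16 carriers and import proteins, 10 rose (62.5%) and 4 fell (25%), and the protein import genes Tomm40, Tomm20 and Timm44 rose by 0.62, 0.61 and 0.54. Under TMM scaling 7 of the 16 were higher and 5 lower (median 0.11, beside 0.23 as deposited). Rescaled without the mitochondrially encoded genes, 13 were higher and 0 lower. Leaving out single libraries moved the count of lower carriers to between 2 and 4, and that of higher regulators to between 3 and 5, lowest without RUNX1-RARA replicate 2.

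**Figure D5:**
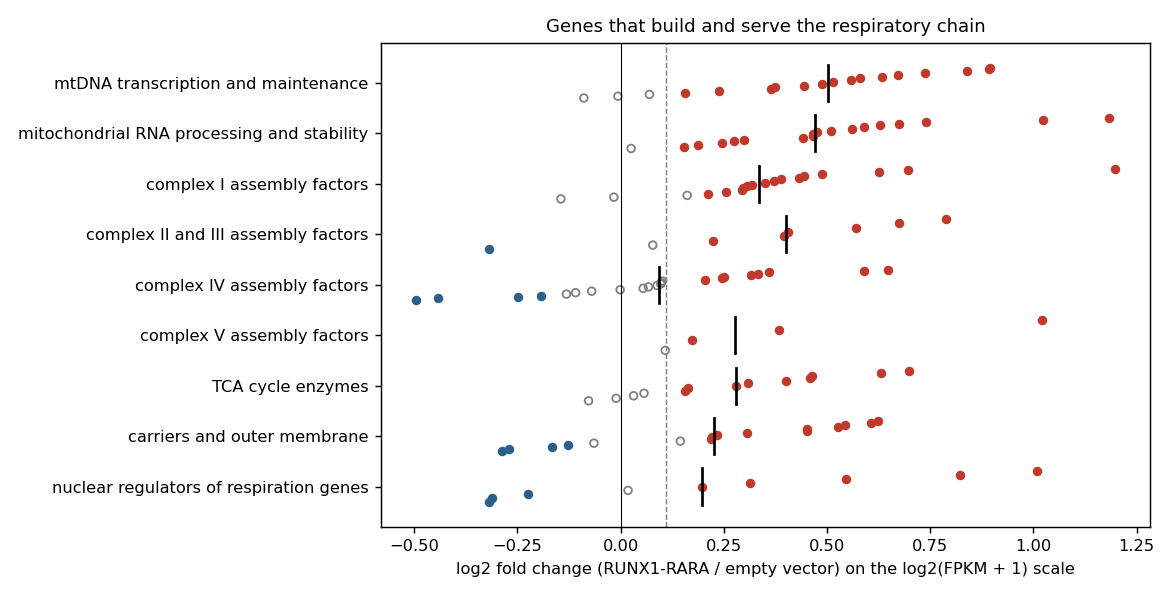
Log2 fold change (RUNX1-RARA over empty vector) of tested genes in lists of mitochondrial transcription, RNA processing, assembly, citric acid cycle, carriers and regulators; red points were called higher, blue lower and open points not called, with the list median as a black line and the median of all tested genes, 0.11, dashed. No blue point lies in the transcription, RNA processing, complex I assembly, complex V assembly or citric acid cycle lists.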

How the data were processed

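RNA sequencing gave 1 expression table for 6 libraries, 3 RUNX1-RARA and 3 empty vector, grouped by the genotype label. The values are FPKM computed by the authors and deposited with 3 decimals. The submitters' processing notes name, without order or role, DESeq2 1.32.0, featureCounts 2.0.1, HISAT2 2.2.1 and fastp 0.22.0, and 2 genome builds. TRIzol was used for total RNA, per the labels' protocols. Poly(A) selection is described beside another assay, and whether it applied here, which would bear on mitochondrially encoded genes, is not stated. The sources used here do not state the strand setting, the annotation or the treatment of multi-mapped reads. Gene structures and coordinates came from GENCODE M21 on GRCm38, in which 21591 of the table's IDs were found.

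Genes reaching 1 FPKM in 3 libraries or more (10901 of 21684) were tested with limma 3.58.1 in R 4.3.3 on log2(FPKM + 1), with trended moderation and Benjamini-Hochberg adjustment over all tested genes. Fold changes on this scale understate those of low genes, while folds without that scale are mean FPKM ratios. The test was checked on simulated data. The steps between low values, FPKM times exon length, gave estimated depths, with 85.5% to 87.8% of low values lying at most 0.1 from a whole read, where chance gives 20%. Most of these were even (68.3% to 74%), so only relative depths are firm, counts could not be recovered and count models were not used. Alternatives covered the pseudocount, the filter on low values, the scaling, the moderation, a replicate block and leaving out each library.

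The members and gene lists were chosen with earlier results of these data known, so no count supports the choice itself. Named in full were all mitochondrially encoded genes, the 3 largest rises and falls per complex among called members without overlap, set isoforms, and up to 3 called genes per list. The values of 1 nuclear member are not reported here, though it stays in the counts. Other members, Nrf1 and Gabpa were named after their values were seen.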

Additional observations from a re-analysis of the deposited data

How the results depend on the processing

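The rise of all 13 mitochondrially encoded genes kept its direction under every alternative run, and all 13 stayed called except mt-Co1 without a filter on low values. The nuclear counts moved with the scaling. When rescaled without the mitochondrially encoded genes, higher and lower calls were 22 and 2 in complex I, 7 and 1 in complex III, 8 and 0 in complex IV, and 14 higher in complex V, 4 and 0 for subunits outside the rule, 16 and 2 for complex IV assembly, and no lower calls for complex II and III assembly, regulators or carriers. Blood cell markers then had 1 higher and 3 lower and monocyte markers 1 higher. Under both TMM and median-of-ratios scaling, complex II had 1 higher, complex IV 2 higher and 2 lower, complex V 4 lower, complex IV assembly 5 higher and 6 lower, complex I assembly and mitochondrial DNA transcription 1 lower each, and the citric acid cycle 2 lower. Quantile normalization gave 1 lower in complex III, complex I assembly and mitochondrial DNA transcription, and 2 lower carriers. Rescaling to equal sums also gave 2 lower carriers. Without a filter, complex V had 2 lower, subunits outside the rule 1 lower and complex IV assembly 2 lower. At a mean of at least 5 FPKM, fewer genes were tested, with 9 higher for mitochondrial DNA transcription and 3 for regulators.

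Leaving out single libraries gave 1 to 3 higher in complex II, 1 to 2 lower in complexes III, IV and V and in subunits outside the rule, 0 to 1 lower in complex I assembly, 2 to 4 lower in complex IV assembly and carriers, 3 to 5 higher regulators and 5 to 10 lower monocyte markers, the lowest without any 1 empty vector library, where fewer genes passed the filter. Rescaling without the mitochondrially encoded genes turned 19 of the 28 negative nuclear values positive, 3 of them with a call (Ndufa6, Uqcrc2 and Atp5j). Among these and Nrf1, those called on either scale were Ndufa6 (0.23), Ndufa8 (0.0397), Ndufb7 (0.0137), Uqcrc2 (0.22), Uqcrc1 (0.0865), Atp5j (0.14) and Nrf1 (0.0033), and leaving out RUNX1-RARA replicate 3 turned the sign of Ndufa11 with a call (0.21), whose values without single libraries ran from -0.15 to 0.21. Beyond the scaling itself, the cause was not tested.

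Same-numbered libraries did not deviate together (r = 0.0219, -0.375 and -0.0647 for replicates 1, 2 and 3). Between unlike numbers, r ran from -0.307 to 0.396. Deviations from a mean of 3 libraries depend on each other, so these values cannot exclude that the samples were paired. With the replicate block, 35 nuclear rows were higher and 12 lower, and 2 carriers were lower. TMM and median-of-ratios scaling each turned 12 of 51 positive nuclear values negative, all without a call. Depth, known only in relative terms, limits genes near 1 FPKM such as Cox6b2, Cox7a1 and Ppargc1b.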
